A study of Danio rerio with 56 samples.

Results

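The 200 transcripts described here were absent or nearly absent from control zebrafish eggs and abundant in control embryos at 10 hours post fertilisation (hpf). They were chosen by their own levels. A transcript qualified when its mean over the 4 control egg libraries was below 0.1 TPM (a level scaled to transcript length and library depth) and its mean over the 4 control embryo libraries was at least 5 TPM. Of 57192 transcripts in the deposited tables, 537 met both limits, and the 200 with the highest control embryo mean were kept. The levels that chose them are therefore a description and support nothing on their own.

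The unfertilised zebrafish egg holds a store of maternal RNA, and the early cleavage divisions run on that store while the embryonic genome is largely silent. At the maternal-to-zygotic transition the genome of the embryo is activated and much of the maternal store is degraded. A transcript lacking from the egg and present later is taken to come from the genome of the embryo, and by the close of gastrulation the products of such genes take part in setting up the germ layers and the body axis.

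Parents were sexually mature fish of the 5D strain, 120 days old at the start, whose diet for 21 days included flakes carrying benzo[a]pyrene (BaP, formed in incomplete combustion and one of the polycyclic aromatic hydrocarbons) or the acetone carrier alone. The dose was 25 µg per g of fish, which equals 1250 µg per g of food. Embryos at 10 hpf came from 4 crosses: both parents BaP-fed, mother only BaP-fed, father only BaP-fed, and neither parent BaP-fed (control), and eggs came from BaP-fed and from control fish. Each of these 6 groups had 4 RNA libraries, made from ribosome-depleted total RNA. The embryo group with both parents fed is labelled only as BaP and is read as such because the other 3 crosses carry labels of their own. Neither the eggs nor the embryos were fed BaP themselves. The labels tie no library to a tank or a spawning, so p-values measure the spread between libraries only, which may in part be technical. In bulk libraries such as these, fewer cells of a type and less RNA per cell cannot be told apart.

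The files name each transcript by an Ensembl identifier and pair none with a gene, and 0 of the 57192 identifiers were found in the reference tables used here. No gene name, position, sequence or function is therefore given for any of the 200, and the egg and embryo labels could not be checked against marker genes. The levels are estimates that share reads among transcripts of a gene. A transcript missing from eggs may thus belong to a gene with another transcript in eggs, and the word zygotic holds here for the listed transcript, not for its gene.

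In control embryos the 200 transcripts had a median of 40.5 TPM, with quartiles of 26.4 and 82.4 TPM. The lowest stood at 18.2 TPM and the highest at 723 TPM, and 40 reached 100 TPM. The 10 highest carried 31.1% of the summed TPM of the set. The limits of the choice were narrow: the last transcript inside had 18.1977 TPM in control embryos and the first outside 18.1851 TPM. On the egg side, the highest control egg mean inside was 0.0990 TPM, and a transcript with 86.5 TPM in control embryos fell outside with 0.102 TPM in control eggs.

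The set ran from 149 to 13486 bases, with a median length of 1459.5 bases. Of these, 47 were shorter than 1000 bases and 6 were longer than 5000 bases. As a yardstick, 5930 transcripts reached the same control embryo level but had at least 0.1 TPM in control eggs, and their median length was 1805.5 bases. For 55 of the 200 (27.5%) the estimated count was exactly a whole number, as deposited, in all 16 embryo libraries, against 22.6% of the yardstick; how reads were split between transcripts is not given in the tables.

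**Figure D1:**
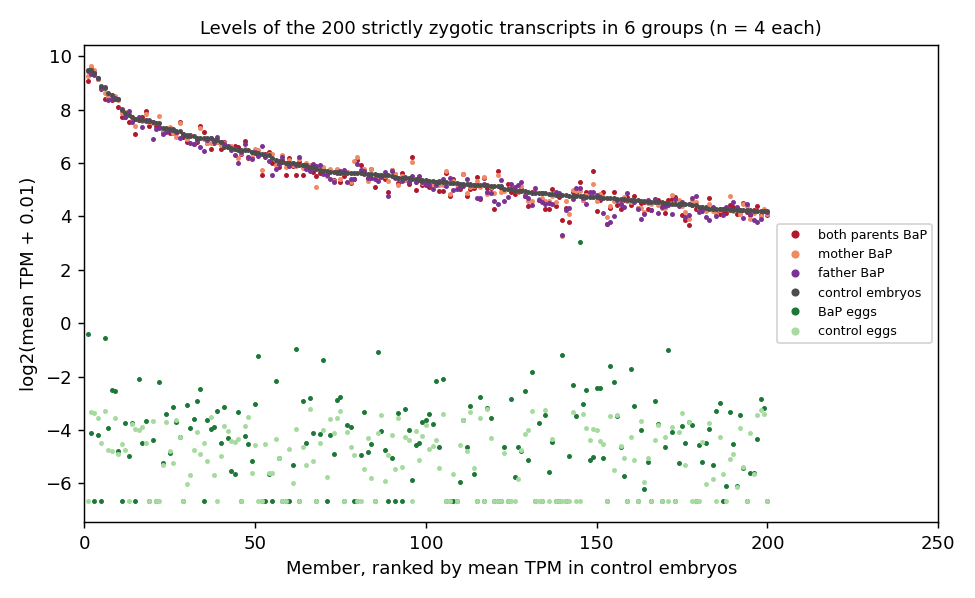
Mean TPM of each of the 200 transcripts in 6 groups (n = 4 libraries each), on a log2 scale after adding 0.01 TPM, with the transcripts ranked along the x axis by their control embryo mean. The points of the 4 crosses lie close together from 723 TPM down to 18.2 TPM in control embryos, and the egg points lie far below except for a BaP egg point at 8.32 TPM; the bottom row holds transcripts listed at 0.

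The highest level in control embryos belonged to ENSDART00000184387.1 (426 bases). It had 587, 392, 676 and 508 TPM in embryos with both parents BaP-fed, 651, 465, 768 and 549 TPM with the mother fed, 763, 624, 708 and 725 TPM with the father fed, and 502, 784, 659 and 946 TPM in controls. The libraries within a group spread widely and all 4 groups overlap. Next came ENSDART00000170044.2 (1170 bases), with 960, 619, 609 and 864 TPM with both parents fed, 815, 834, 772 and 734 TPM with the mother fed, 691, 815, 588 and 500 TPM with the father fed, and 746, 728, 668 and 691 TPM in controls. Its mother-fed libraries were close together, those of the other BaP crosses were not, and the groups again overlap.

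All 200 transcripts exceeded 5 TPM on average in each of the 3 BaP crosses, which had no part in the choice. That limit was easily passed, since the set began at 18.2 TPM in control embryos, so this is a description. The median over the set was 38.7 TPM with both parents fed, 40.2 TPM with the mother fed and 38.9 TPM with the father fed, against 40.5 TPM in controls. The lowest mean with both parents fed was 12.8 TPM. The 10 most abundant transcripts of the set were the same 10 in all 4 crosses. For 183 of the 200, all 3 BaP cross means lay within 1.5-fold of the control mean.

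Among the 3 BaP crosses alone, the highest cross mean exceeded the lowest by a median ratio of 1.20 for the set and 1.12 for the 5930 transcripts of like level. The embryos with the mother fed were seldom the lowest: they held the lowest of the 3 means for 24 transcripts, against 91 with the father fed and 85 with both parents fed. As shares of the set these are 12%, 45.5% and 42.5%, and the yardstick had a similar order with 18.4%, 41.3% and 40.3%. The ratio passed 2 for 2 transcripts, which are named after their values were seen. ENSDART00000143791.2 (206 bases) had 64.1, 46.9, 52.7 and 46.3 TPM with both parents fed, 33.6, 38.3, 42.7 and 73.6 TPM with the mother fed, and 14.9, 27.0, 31.3 and 15.1 TPM with the father fed. All 4 father-fed libraries lay below all libraries of the other BaP crosses. The edgeR tests between BaP crosses, described below, did not call it, and mother fed over father fed had an edgeR adjusted p of 0.362. The other was ENSDART00000137277.2, whose level came and went between libraries as given below.

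The SD between libraries of a cross, averaged over the 4 crosses, had a median of 0.24 on the log2(TPM + 0.1) scale over the set, with 0.13 and 0.47 at the 10th and 90th percentiles, and a median of 0.15 over the yardstick. In 4 of the 200 that SD passed 1. These 4 were short, and each had an estimated count below 1 in at least 1 embryo library. The most erratic was ENSDART00000137277.2 at 149 bases, with 0, 0, 38.0 and 151 TPM with both parents fed, 97.0, 0, 0 and 117 TPM with the mother fed, 0, 0, 272 and 124 TPM with the father fed, and 75.2, 0, 68.7 and 184 TPM in controls. It was listed at 0 in 7 of 16 embryo libraries spread over all 4 crosses, and in an egg library 3 reads of it would stand for an average of 55.9 TPM, so its absence from eggs is not resolved.

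Summed over the 200, the set took 16914, 13331, 15370 and 15917 TPM in embryos with both parents fed, 15643, 16245, 16647 and 15566 TPM with the mother fed, 15585, 15648, 16142 and 13879 TPM with the father fed, and 15623, 16387, 16329 and 16667 TPM in controls. The sums of the 4 crosses overlap, and the lowest belong to replicate 2 of both parents fed and replicate 4 of the father fed. The means were 15383 ± 1510 TPM for both parents fed, 16025 ± 514 TPM for the mother fed, 15313 ± 988 TPM for the father fed and 16251 ± 444 TPM for controls (SD, n = 4 each).

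The same low libraries held the most RNA of the egg type. This was gauged on 2993 transcripts, chosen after the data were seen, whose mean in eggs was at least 5 TPM and at least 8 times that in embryos. Their summed level was 6269, 11512, 7018 and 5921 TPM with both parents fed, 6753, 6262, 5996 and 6078 TPM with the mother fed, 6893, 6207, 7636 and 8195 TPM with the father fed, and 5848, 6521, 5848 and 6409 TPM in controls. Replicate 2 of both parents fed stood highest of all 16 libraries and replicate 4 of the father fed next, while eggs held 261095 to 292036 TPM. The part of this egg-type RNA in the results on the 200 was not tested.

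**Figure D2:**
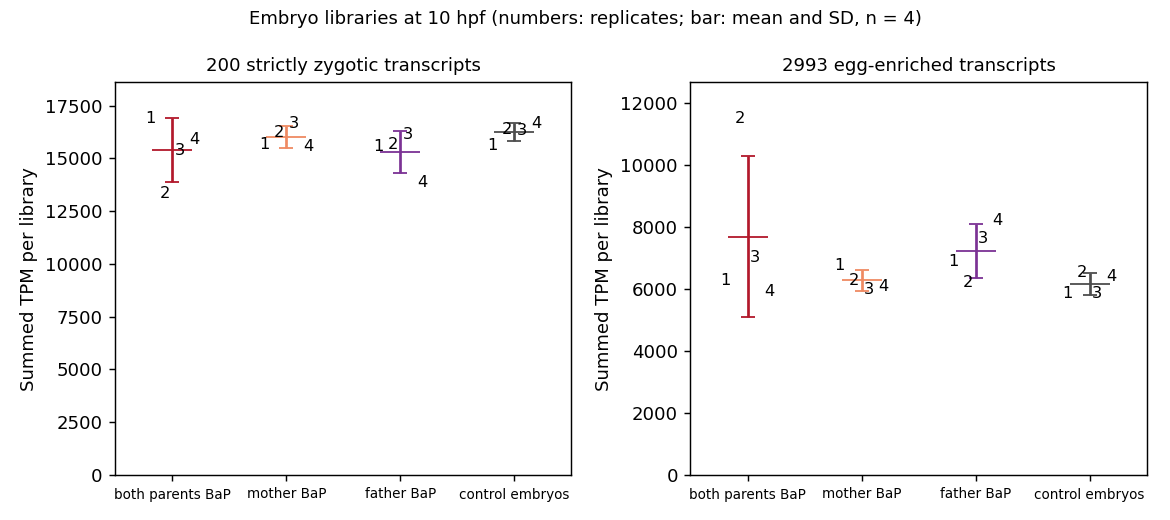
Summed TPM per embryo library of the 200 zygotic transcripts (left) and of the 2993 egg-enriched transcripts (right). Numerals mark replicates and bars show the mean and SD of 4 libraries per cross; replicate 2 of both parents fed is lowest on the left at 13331 TPM and highest on the right at 11512 TPM.

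The eggs of BaP-fed fish, which were not used in the choice, also held little of the set. In these eggs 156 of the 200 transcripts averaged below 0.1 TPM and 44 at or above it, 50 were listed at 0 in all 4 libraries, and the median was 0.0341 TPM. A level of 0.1 TPM is near the limit of these libraries. A floor of 3 reads was taken as a rough bound for a count of 0 and is not a hard limit. It stood for a median of 0.0826 TPM over the 200 and for more than 0.1 TPM in 75 of them. Of the 44, 11 had reads in all 4 BaP egg libraries, and in 12 a lone library held over 80% of the total. In all 8 egg libraries 35 transcripts were listed at 0.

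The summed level of the set was 29.7, 10.9, 12.1 and 37.5 TPM in BaP eggs and 4.25, 10.3, 5.27 and 5.01 TPM in control eggs. Every BaP egg library stood above every control egg library, but the control eggs were low by choice. The 200 were therefore also chosen anew with each control egg library left out in turn, a step added after the data were seen. For these 4 choices BaP egg libraries held 10.8 to 41.4, 12.6 to 58.6, 10.0 to 55.2 and 11.3 to 60.6 TPM, and the control library left out held 10.1, 20.4, 15.96 and 29.1 TPM. The first library left out fell just below the span of the BaP eggs and the other 3 fell inside it.

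The number of transcripts at or above 0.1 TPM overlapped as well. It was 29 to 58, 26 to 56, 26 to 54 and 30 to 62 in BaP eggs for the 4 choices, and 27, 53, 32 and 30 in the control egg library left out. Transcripts with an estimated count of at least 1 numbered 101, 87, 88 and 88 in BaP eggs and 60, 108, 71 and 66 in control eggs, and replicate 2 of the control eggs held more than any BaP library.

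**Figure D3:**
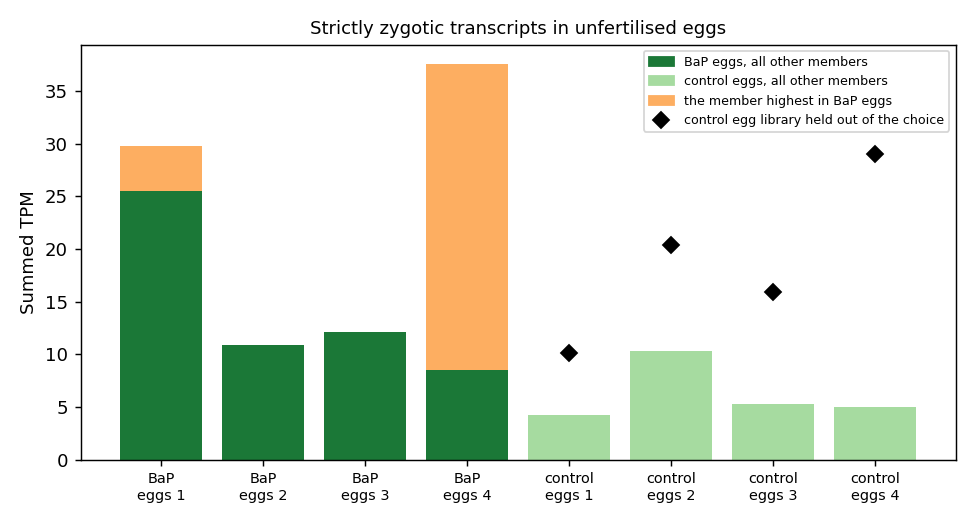
Summed TPM of the 200 transcripts in the 8 egg libraries (bars, with ENSDART00000060145.5 in orange) and, as diamonds, the sum in each control egg library when the choice was made without it. BaP egg sums of 10.9 to 37.5 TPM lie above the control egg sums of 4.25 to 10.3 TPM, whereas 3 of the 4 left-out control eggs, which run from 10.1 to 29.1 TPM, lie among them.

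The highest BaP egg sum came mostly from a lone transcript. ENSDART00000060145.5 (2395 bases) had 4.27, 0, 0 and 29.0 TPM in BaP eggs and was listed at 0 in all 4 control eggs. Its estimated count was 153 in the first and 1026 in the fourth BaP egg library. It was the only transcript of the 200 to average 1 TPM or more in BaP eggs, and its estimated count was not whole. Without it, the BaP egg sums were 25.5, 10.9, 12.1 and 8.53 TPM. The transcript with the next highest BaP egg mean, ENSDART00000184387.1, had 2.99, 0, 0 and 0 TPM there and 0 in every control egg library, so that level rests on replicate 1.

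A test of BaP eggs against control eggs was possible for few of the set, since only 6 of the 200 passed the filter on low counts. None of the 6 was called, among 0% called over all 29023 transcripts tested (edgeR's quasi-likelihood test with Benjamini-Hochberg adjustment, threshold 0.05). At an unadjusted p under 0.05 there was 1 of the 6, beside 3.60% of all transcripts, and DESeq2 called 0. The choice kept control egg levels low, so this filter favours members with more reads in BaP eggs. The median log2 fold change of the 6 was 1.99, with 1 below 0, and this direction supports nothing. The 1 with an unadjusted p under 0.05, ENSDART00000105174.6 (3332 bases), is named after its values were seen. It had 0.0506, 1.29, 0.313 and 0.993 TPM in BaP eggs and 0.0714, 0.156, 0.0555 and 0.0907 TPM in control eggs. The groups overlap through replicate 1 of the BaP eggs, and the log2 fold change of 2.76 ± 0.89 (SE) had an unadjusted p of 0.0143 and an adjusted p of 1.00.

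The step from egg to embryo was then followed in the BaP lineage, in libraries that the choice had not used. With both parents fed, 197 of the 198 transcripts tested were higher in embryos than in BaP eggs and 0 were lower, where 37.0% of all 30948 transcripts tested were called higher. Since members passed the filter through the embryo libraries, this is an account of the members and not a sign of their agreement. The rise was not particular to the 200. Of the other 337 transcripts that met both limits, 316 were tested and 99.1% were called higher. A further 867 transcripts of like control embryo level had at least 0.1 TPM in control eggs and at least 8 times that level in control embryos. Of these, 99.3% were called higher and 0 lower. Counted without any filter, 198 of the 200 had every embryo library above every BaP egg library, as had 30.3% of all transcripts tested. The filter removed ENSDART00000190678.1 and ENSDART00000137277.2, both of which had embryo libraries at 0 and no egg reads.

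The smallest adjusted p-values were those of ENSDART00000039597.6 and ENSDART00000028338.8. ENSDART00000039597.6 (3535 bases) had 251, 275, 335 and 224 TPM in embryos with both parents fed and 0.0158, 0.0224, 0.0332 and 0.0321 TPM in BaP eggs, a log2 fold change of 13.64 ± 0.21 (SE) with an edgeR adjusted p of 1.02e-08. ENSDART00000028338.8 (1406 bases) had 36.5, 39.0, 36.8 and 33.0 TPM in these embryos and 0.0516, 0.0722, 0.0801 and 0.0757 TPM in BaP eggs, a log2 fold change of 9.42 ± 0.17 with an adjusted p of 1.29e-08. Both had 1 to 4 reads in every BaP egg library, so the egg level is a trace, and the size of each fold rests on those few reads.

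The exception was ENSDART00000060145.5, with 43.1, 35.6, 40.2 and 36.4 TPM in embryos with both parents fed and 4.27, 0, 0 and 29.0 TPM in BaP eggs. Its groups do not overlap, but its edgeR adjusted p was 0.145. Without replicate 4 of the BaP eggs the log2 fold change was 5.10 and the adjusted p 0.0232.

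Between crosses, the only contrast not involving controls in which the edgeR test called members was that of both parents fed against the father alone, which asks what the BaP-fed mother adds. Here 17 of the 199 transcripts tested were lower with both parents fed and 1 was higher. As shares these are 8.54% and 0.503%, beside 2.08% lower and 3.16% higher over all 30894 transcripts tested. The lower share is above that background but near that of the 5930 transcripts of like level, of which 9.06% were lower and 1.59% higher. It also equals the 8.54% of the 867 among these that were at least 8 times as abundant in control embryos as in control eggs. Of these 867, however, 4.38% were higher. The other 337 transcripts that met both limits of the choice leaned the other way, with 1.51% lower and 4.82% higher.

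The median log2 fold change of the set in this contrast was -0.14 on trimmed-mean (TMM) scaled counts, where that of all transcripts was 0.03. On that scale the yardstick had a median of -0.15 and its 867 embryo-enriched transcripts -0.14, so the shift was not particular to the set. Taken from TPM means, the medians of the set and of all transcripts were -0.003 and 0.17. The scale thus shifts all transcripts by 0.14, and the median of the set is about level on one scale and lower on the other. All 17 lower transcripts were lower on the TPM scale as well, with a median log2 ratio of -0.33 and a range of -0.60 to -0.09. On TMM-scaled counts their median was -0.48 and their range -0.73 to -0.25.

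**Figure D4:**
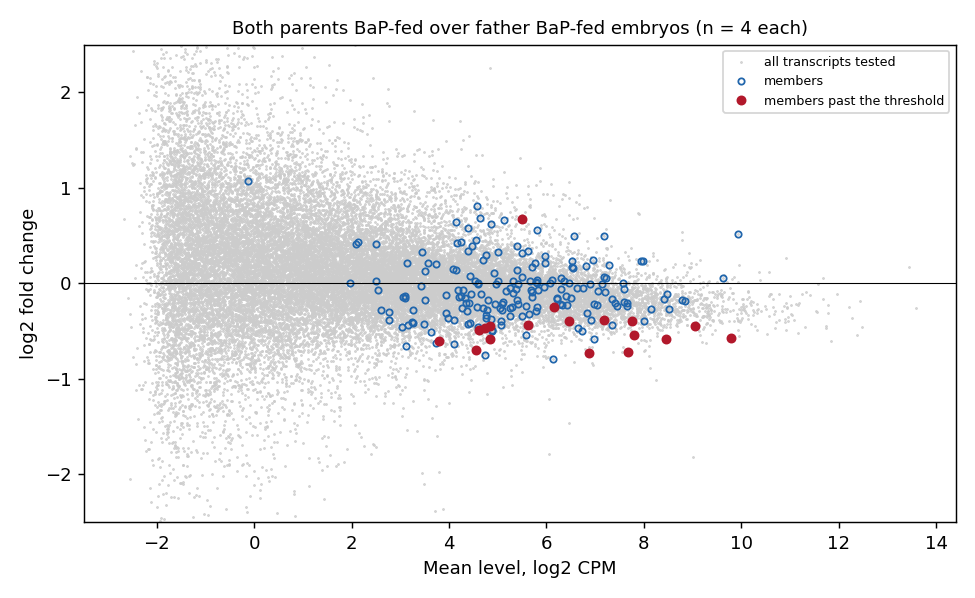
Log2 fold change of both parents fed over father fed against mean level for the 200 transcripts and all transcripts tested, on TMM-scaled counts; transcripts beyond the plotted range are not drawn. The 17 lower calls range from -0.73 to -0.25 and lie within the cloud of other transcripts, which sinks below 0 at higher levels.

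The smallest p belonged to ENSDART00000181146.1 (2060 bases, 13th by control embryo level). It had 161, 179, 239 and 164 TPM with both parents fed and 242, 238, 251 and 269 TPM with the father fed. The 2 groups overlap only through replicate 3 of both parents fed, at 239 TPM against the lowest father-fed library at 238 TPM. Its log2 fold change was -0.58 ± 0.10 (SE) with an edgeR adjusted p of 0.00399. With the mother fed it averaged 230 ± 13.2 TPM and in controls 225 ± 24.6 TPM (SD, n = 4 each). In a fit to the 8 libraries of the 2 crosses alone its adjusted p was 0.0536.

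ENSDART00000007090.9 (4949 bases, with whole counts throughout) came next, with 93.6, 85.6, 107 and 84.3 TPM with both parents fed and 111, 109, 110 and 115 TPM with the father fed. Every library with both parents fed lay below every library with the father fed, and the log2 fold change was -0.39 ± 0.07 with an edgeR adjusted p of 0.00463. Its mean was 103 ± 2.51 TPM with the mother fed and 110 ± 10.5 TPM in controls. This call held in all 14 alternative settings that gave it a value.

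The transcript called higher was ENSDART00000040769.7 (3077 bases, whole counts throughout). It had 31.9, 18.6, 21.4 and 30.9 TPM with both parents fed and 16.7, 15.1, 16.1 and 10.6 TPM with the father fed. The groups do not overlap, the lowest father-fed library was replicate 4, and the log2 fold change was 0.68 ± 0.18 with an edgeR adjusted p of 0.0441. It passed the threshold in 5 of 14 alternatives. Without father-fed replicate 4 its log2 fold change was 0.53 with an adjusted p of 0.114, and over all alternatives the adjusted p ran from 0.00632 to 0.173.

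The lowest library of the 17 lower transcripts among the 4 with both parents fed was replicate 1 in 6, replicate 2 in 6, replicate 4 in 5 and replicate 3 in 0. Replicate 2 was also the embryo library with the most egg-type RNA, and its part in these calls was not tested beyond leaving it out. The 18 called transcripts were 771 to 7621 bases long with a median of 1886 bases, and 4 of them had whole counts throughout.

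The count of calls changed with the library left out. It was 6 without replicate 1 of both parents fed, 11 without replicate 2, 21 without replicate 3 and 8 without replicate 4. Without father-fed replicates 1, 2, 3 and 4 in turn it was 6, 12, 16 and 12. DESeq2 called 36 members, among them all 18, and the fit to the 8 libraries alone called 3, of which 2 were among the 18. Here and in the contrasts below, no share over all transcripts is given for DESeq2 or for fits to fewer libraries. Those counts therefore describe the members only. At an unadjusted p under 0.05 there were 50 lower and 14 higher members, or 25.1% and 7.04% of those tested, against 9.07% lower and 11% higher over all transcripts. The shares were 31.3% lower and 3.88% higher in the yardstick, and 28.1% lower and 10.5% higher among its 867 embryo-enriched transcripts.

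**Figure D5:**
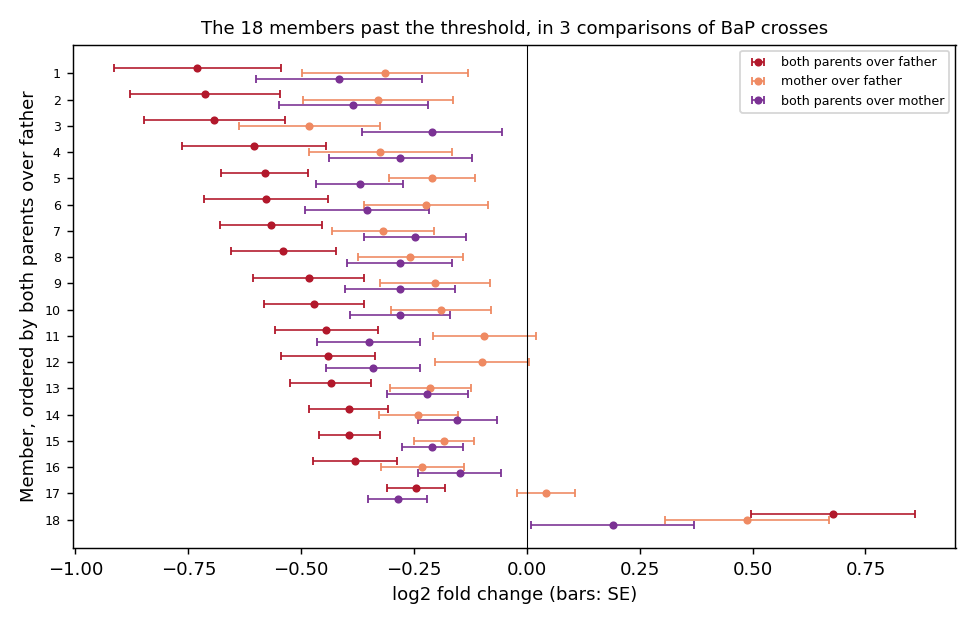
Log2 fold changes on TMM-scaled counts, with SE bars, of the 18 transcripts called in both parents fed over father fed, each also shown for mother fed over father fed and both parents fed over mother fed. The 17 lower calls lie at -0.73 to -0.25, and the other contrasts of the same 18 run from -0.48 to 0.49 (mother over father) and from -0.42 to 0.19 (both parents over mother); the 3 contrasts share libraries.

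Both parents fed against the mother alone, which asks what the BaP-fed father adds, gave 0 edgeR calls among 199 members, with 0% called over all 30894 transcripts. At an unadjusted p under 0.05 there were 19 members, all lower, and DESeq2 called 1. The 19 were 9.55% of the members tested, where 2.87% of all transcripts were lower, as were 8.45% of the yardstick and 9.80% of its 867 embryo-enriched transcripts. The median log2 fold change of the set was -0.10, against 0.02 for all transcripts, on TMM-scaled counts. It was -0.07 in the yardstick and -0.10 in its 867 embryo-enriched transcripts. The member of smallest p was ENSDART00000067177.6 (3335 bases), with 22.2, 25.4, 26.8 and 23.6 TPM with both parents fed and 27.7, 28.0, 29.8 and 29.2 TPM with the mother fed. Its groups do not overlap, and the log2 fold change of -0.29 ± 0.06 had an edgeR adjusted p of 0.709, with 0.00497 by DESeq2. In the other direction ENSDART00000060145.5, the transcript seen in BaP eggs, had 43.1, 35.6, 40.2 and 36.4 TPM with both parents fed and 34.3, 33.1, 30.8 and 26.5 TPM with the mother fed. Its log2 fold change was 0.28 ± 0.15 with an edgeR adjusted p of 0.785.

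The mother alone against the father alone also gave 0 edgeR calls in the set, with 0.00324% called over all transcripts. There were 29 members at an unadjusted p under 0.05, 14 higher and 15 lower, which is 14.6% of those tested against 10.6% of all transcripts and 15.8% of the yardstick, and DESeq2 called 2, both higher with the mother fed. ENSDART00000149443.3 (6346 bases) had 49.6, 51.7, 52.7 and 50.2 TPM with the mother fed and 39.9, 41.6, 38.6 and 34.4 TPM with the father fed. The groups do not overlap, and the log2 fold change of 0.31 ± 0.08 had an edgeR adjusted p of 0.177, with 0.0148 by DESeq2. ENSDART00000007090.9 averaged 103 ± 2.51 TPM with the mother fed and 111 ± 2.66 TPM with the father fed (SD, n = 4 each), a log2 fold change of -0.18 ± 0.07 with an edgeR adjusted p of 0.328.

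The contrasts with controls share their control libraries with each other and with the choice of the set, which favours transcripts that happen to be high in those libraries. They are given as a description. The edgeR test called 0 members in all 3. Over all transcripts tested it called 0.00324% with both parents fed, 0% with the mother fed and 0.424% with the father fed. These shares are edgeR's and are no background for the DESeq2 counts below.

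With both parents fed, 34 members were lower and 4 higher than in controls at an unadjusted p under 0.05, and DESeq2 called 7, of which 6 were lower. These 38 were 19.1% of the members tested, against 10.4% of all transcripts, 16.6% of the yardstick and 19.1% of its 867 embryo-enriched transcripts. By direction, 17.1% of the members were lower and 2.01% higher, against 4.88% lower and 5.50% higher over all transcripts. The yardstick had 14.4% lower and 2.14% higher, and its 867 embryo-enriched transcripts 17.2% and 1.96%, so this lean was not particular to the set. The median log2 fold change was -0.12 in the set and -0.11 in the 867 transcripts of like level that were at least 8 times as abundant in control embryos as in control eggs. ENSDART00000145710.3 (706 bases) had 11.7, 13.7, 16.7 and 13.9 TPM with both parents fed, 13.9, 16.7, 18.6 and 19.5 TPM with the mother fed, 21.0, 18.4, 25.1 and 15.5 TPM with the father fed, and 20.2, 23.1, 29.7 and 36.7 TPM in controls. Controls stood above every library with both parents or the mother fed and overlapped the father-fed group. The log2 fold change over controls was -0.97 ± 0.19 with both parents fed (edgeR adjusted p 0.266, DESeq2 0.000756) and -0.64 ± 0.19 with the mother fed (edgeR adjusted p 1).

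ENSDART00000165705.3 (1730 bases, whole counts throughout) had 90.5, 71.9, 72.2 and 66.2 TPM with both parents fed, 68.4, 66.4, 66.3 and 63.4 TPM with the mother fed, 46.8, 42.4, 53.4 and 42.5 TPM with the father fed, and 47.1, 23.9, 32.3 and 65.9 TPM in controls. Every library with both parents fed lay above every control library, while control replicate 4 lay inside the mother-fed range. Against controls, both parents fed gave a log2 fold change of 0.80 ± 0.22 with an edgeR adjusted p of 0.346 and 0.0472 by DESeq2.

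With the mother fed, 6 members passed an unadjusted p under 0.05, 4 higher and 2 lower, which is 3.02% of those tested against 4.18% of all transcripts, and DESeq2 called 0. With the father fed there were 20, 11 higher and 9 lower, or 10.1% against 11.1% of all transcripts, and DESeq2 called 3. The median log2 fold change of father fed over control was 0.01 in the set and 0.01 over all transcripts on TMM-scaled counts, and -0.10 in both on TPM. ENSDART00000143934.3 (840 bases) had 13.1, 14.5, 17.5 and 10.8 TPM with the father fed and 24.4, 27.2, 25.9 and 24.9 TPM in controls. The gap between the groups was wide, and the log2 fold change of -0.75 ± 0.16 had an edgeR adjusted p of 0.0523. It was called by DESeq2 (adjusted p 0.000780), under the filter of 2 CPM in 4 libraries (0.0323) and without father-fed replicate 3 (0.0388), and in none of the other 11 alternatives. With both parents fed this transcript averaged 20.1 ± 2.76 TPM and with the mother fed 20.8 ± 3.39 TPM (SD, n = 4 each).

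Whether the effect of one parent's diet depended on that of the other was tested as an interaction, the log2 fold change of both parents fed over mother fed less that of father fed over control. It uses the control libraries too. It called 0 members higher and 2 lower of 199, or 1.01% lower. Over all transcripts it called 0.822% higher and 0.0777% lower, and in the yardstick 0.810% higher and 0.287% lower. At an unadjusted p under 0.05 there were 8 higher and 23 lower, together 15.6% of those tested against 11.8% of all transcripts and 18.5% of the yardstick. By direction, 4.02% of the members were higher and 11.6% lower, against 7.18% and 4.63% of all transcripts. The yardstick had 3.02% higher and 15.5% lower, and its 867 embryo-enriched transcripts 9.11% and 12.6%. ENSDART00000181146.1, whose levels are given above, had an interaction of -0.64 ± 0.14 on the log2 scale with an edgeR adjusted p of 0.0418.

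The other was ENSDART00000062303.5 (1152 bases, whole counts throughout and listed at 0 in all 8 eggs). It had 64.4, 61.8, 84.8 and 69.6 TPM with both parents fed, 79.5, 73.7, 85.1 and 79.8 TPM with the mother fed, 75.3, 71.8, 74.96 and 76.5 TPM with the father fed, and 63.5, 67.2, 69.4 and 64.8 TPM in controls. Its controls lay below every library with the mother alone or the father alone fed, while both parents fed overlapped all the other groups. The log2 fold change over controls was 0.28 ± 0.08 with the mother fed (edgeR adjusted p 1) and 0.29 ± 0.08 with the father fed (edgeR adjusted p 0.139). The interaction was -0.53 ± 0.11 with an edgeR adjusted p of 0.0436. Neither interaction call was firm: with a library left out in turn, both held without replicate 3 of both parents fed and without replicate 3 of the father fed, ENSDART00000062303.5 alone held without control replicate 3, and neither held without any other library.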

How the data were processed

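RNA of 24 libraries (16 of embryos, 8 of eggs) was analysed; 32 bisulfite samples were not analysed here. Per the file headers, the deposited values are the length and effective length of a transcript, its TPM and its estimated count. The authors used FastQC, Salmon, DESeq2 and GRCz11, per the submitters' processing notes; the sources used here name no version. Deposited estimated counts summed to 26010776 to 55044612 per library. They were rounded and tested over all transcripts with edgeR 4.0.16 (limma 3.58.1, R 4.3.3): filterByExpr by group, TMM, a robust quasi-likelihood fit, Benjamini-Hochberg adjustment and a threshold of 0.05. The 16 embryo libraries shared a fit, as did both-parents embryos with BaP eggs, and the eggs. Standard errors were derived from the fold change and F statistic. DESeq2 1.42.0 was an alternative. The procedure was also run on simulated data whose planted changes were larger than those called between crosses, so that run does not support those calls. Levels and group means are the deposited TPM; the sums of TPM are over the listed transcripts. Named transcripts are the 2 of highest TPM in control embryos and in BaP eggs and, per contrast, up to 2 higher and 2 lower of smallest adjusted p among those called, otherwise the non-overlapping one of smallest p; any other is said to be named after its values were seen. Pathway and cell type lists could not be applied, as 0 identifiers matched. The 200 transcripts, the lists and the tests were chosen with earlier results of these data known. No interval is given, since estimated counts are not read counts.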

Additional observations from a re-analysis of the deposited data

Results flagged for a closer look

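In groups of 4 libraries, 12 of 102 checks found a library whose gap to its nearest neighbour filled most of the range of the group. Chance gives about 1 in 20 for normally spread values. That rate does not hold where all other libraries of a group share a value, such as 0 TPM in eggs. The gap then fills the whole range, so 12 of 102 is not read as an excess over chance. Among embryos, ENSDART00000007090.9 was low in a library with the mother fed (99.6 TPM), and ENSDART00000181146.1 (188 TPM) and ENSDART00000067177.6 (24.3 TPM) were low in control replicate 1. In a father-fed library all 200 transcripts had an estimated count of at least 1, while the other father-fed libraries lacked 1 each.

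In BaP eggs, 101 transcripts had such a count in replicate 1, more than in the others. ENSDART00000184387.1 had 2.99 TPM in BaP egg replicate 1 and 0 in the rest. ENSDART00000060145.5 stood at 29.0 TPM in replicate 4, where ENSDART00000165705.3 (0.0276 TPM) and ENSDART00000145710.3 (0.0882 TPM) also had their sole BaP egg reads. In control eggs, replicate 2 had the highest sum of the set (10.3 TPM) and the sole reads of ENSDART00000067177.6 (0.149 TPM) and ENSDART00000170044.2 (0.363 TPM).

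By edgeR's interaction test, the change with the father's diet differed by the mother's diet for ENSDART00000181146.1 (interaction -0.64 on the log2 scale) and ENSDART00000062303.5 (-0.53). Neither call was firm: ENSDART00000181146.1 passed the threshold in 6 of 21 alternatives and ENSDART00000062303.5 in 7 of 21.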

How the results depend on the processing

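The members called with both parents fed against father fed numbered 18, with 36 by DESeq2, 3 in the fit to the 8 libraries alone, and 6 to 21 with a library left out. For the other contrasts DESeq2 called 7 (both parents fed over control), 3 (father fed over control), 1 (both parents over mother), 2 (mother over father) and 6 (interaction), where edgeR called 0, 0, 0, 0 and 2. Father fed over control gave 2 under a filter of 2 CPM in 4 libraries and 0 to 1 with a library left out. The interaction gave 0 without a low-count filter and 0 to 2 with a library left out. No share over all transcripts is given for any alternative, so these counts describe the members only. The cause of these shifts was not tested. Same-numbered libraries were weakly correlated in their departures from the group mean. The 24 embryo pairs ran from -0.06 to 0.08, 0 over 0.1. Of 4 egg pairs 1 was over 0.1, at 0.13, and of 4 pairs of embryos with eggs 0 were. Median correlations were 0.002, 0.044 and 0.042 for same-numbered pairs of embryos, eggs and embryos with eggs. For different numbers they were -0.006, -0.008 and -0.004. Such values cannot show that libraries shared no spawning or batch. A replicate block gave 20 calls with both parents against father, 16 of them shared, and 197 for embryos over eggs. The filter of 2 CPM in 4 egg libraries left no member to test. Of the values of named transcripts under alternatives, 240 kept direction and side of the threshold, 39 lost a call and 9 gained it; 0 reversed. Choosing with each control library left out kept 185 to 196 of the 200, an egg limit of 0.05 TPM kept 148, and 0.1 TPM in each control egg library kept 122. Low counts limit every egg value.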

Other observations

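The 4 transcripts of the set with an estimated count below 1 in some embryo library are named after their values were seen. ENSDART00000167511.2 (357 bases) was at 0 in control replicate 1 and at 13.6 to 80.7 TPM in the other 15 embryo libraries. ENSDART00000190678.1 (541 bases) was at 0 in replicate 2 of both parents fed and in control replicate 2, with up to 55.9 TPM in control replicate 4. ENSDART00000140530.2 (760 bases) was at 0 in father-fed replicate 4 and at 44.3 TPM in control replicate 2. It averaged 27.8 TPM in controls, 14.5 TPM with both parents fed, 9.68 TPM with the mother fed and 9.94 TPM with the father fed. Each BaP cross overlapped the controls, edgeR called none of these contrasts, and the control libraries had a part in the choice. ENSDART00000137277.2 (149 bases) ran between 0 and 272 TPM within the father-fed cross. In the first 3 of these at most 1 library of any group was at 0.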
